A study of Mus musculus with 9 samples.

Results

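The genes examined here direct lymphocytes into and out of lymph nodes. They were the rows of the deposited expression table with the symbols Ccr7, S1pr1, S1pr4, Gpr183, Klf2, Klf3, Foxo1 and Cd69, which are 8 of 39253 genes, and all 8 passed the filter on low counts in every comparison. RNA was sequenced from mouse CD4+ T cells (helper T cells) taken on day 9 of experimental autoimmune encephalomyelitis (EAE), a disease model of multiple sclerosis in which immunised mice develop autoimmunity against the central nervous system. There were 5 libraries labelled ERα KO, a knockout of estrogen receptor alpha, and 4 labelled wildtype (WT), and both genotypes had EAE. Batch 1 of the labels held KO replicates 1, 2 and 3 and WT replicates 1 and 2, and batch 2 held KO replicates 4 and 5 and WT replicates 3 and 4. The series title concerns ERα in dendritic cells, whereas the libraries are from CD4+ T cells. The sources used here do not give the strain, age, sex, tissue of origin, the cells in which the knockout acts or the way EAE was induced.

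Naive and central memory T cells enter a lymph node under the chemokine receptor CCR7 and leave it when S1PR1 senses sphingosine-1-phosphate (S1P), a lipid that is abundant in lymph and blood. The transcription factor FOXO1 drives KLF2, and KLF2 in turn activates S1pr1, while KLF3 is a related factor that mostly represses. On activation, CD69 binds S1PR1 and removes it from the cell surface, and GPR183 (EBI2) guides cells towards oxysterols at the edge of the T cell zone. In EAE, retention in and exit from lymph nodes set when primed T cells reach the circulation.

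The upstream sequences of the 3 transcription factors are shown because this cascade runs through the KLF and FOXO motifs. Each is the 250 bases before the RefSeq start of the gene, 5′ to 3′ on the gene's strand, from build GRCm38.p6, which is not the build named for the deposited table. RefSeq windows were matched for 5 of the 8 genes, namely Klf2, Klf3, Foxo1, S1pr4 and Gpr183. Klf2 lies at chr8:72318812-72319061 and Klf3 at chr5:64803271-64803520, both on the plus strand, and Foxo1 at chr3:52268087-52268336 on the plus strand. Capitals mark a match to CACCC (the KLF core) or to GGTCA (a single arm of the palindromic estrogen response element) on either strand, so that they can read GGGTG or TGACC.
Klf2: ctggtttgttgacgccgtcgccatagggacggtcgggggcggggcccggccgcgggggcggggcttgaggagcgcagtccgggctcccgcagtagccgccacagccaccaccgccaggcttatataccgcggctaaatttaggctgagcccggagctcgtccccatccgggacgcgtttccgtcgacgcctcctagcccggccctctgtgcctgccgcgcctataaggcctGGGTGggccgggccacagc
Klf3: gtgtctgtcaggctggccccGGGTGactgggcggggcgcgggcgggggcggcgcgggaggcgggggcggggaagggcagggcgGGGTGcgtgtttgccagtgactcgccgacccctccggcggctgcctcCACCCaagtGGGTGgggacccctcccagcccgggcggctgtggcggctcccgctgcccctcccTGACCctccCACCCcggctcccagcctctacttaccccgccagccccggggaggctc
Foxo1: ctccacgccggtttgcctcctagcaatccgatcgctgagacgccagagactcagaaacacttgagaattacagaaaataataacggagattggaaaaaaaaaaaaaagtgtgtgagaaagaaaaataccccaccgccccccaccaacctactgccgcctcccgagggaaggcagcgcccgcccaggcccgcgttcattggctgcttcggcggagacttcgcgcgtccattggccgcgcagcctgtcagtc
The Klf3 window held 5 KLF cores and 1 single arm, the Klf2 window held 1 KLF core, and the Foxo1 window held neither. The S1pr4 window held 1 KLF core and 1 single arm, and the Gpr183 window held neither. The FOXO core GTAAACA and the full estrogen response element, in which GGTCA and TGACC stand 3 bases apart so that it contains the single arm, were in none of the 5 windows. Among 32851 RefSeq windows of 250 bases, 52% held the KLF core, 3.17% the FOXO core, 35.2% the single arm and 0.0639% the full element, each on either strand. These matches describe letters and say nothing of binding.

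Several facts of the libraries touch every result below. Totals were 4926347 to 11296593 counts in batch 1 and 45013017 to 69844721 in batch 2, and genes of sensory receptors, which T cells do not use, took 0.0574 to 0.255% of counts in batch 1 (highest in KO replicate 3) against 0.00258 to 0.0037% in batch 2. Xist, the female-specific RNA, stood at 1745 to 2680 CPM (counts scaled to a library total of 1e6) in KO replicates 1 and 2 and in both batch 1 WT libraries, with no Ddx3y, a Y-linked gene, in these 4. KO replicate 3 had 55.4 CPM of Ddx3y and 30.4 CPM of Xist, and the 4 batch 2 libraries had 93.6 to 107 CPM of Ddx3y with at most 0.289 CPM of Xist. Batch and depth therefore cannot be told apart, and sex-linked transcripts differ with batch in 8 of 9 libraries, with KO replicate 3 the exception. The targeted gene Esr1 had 0.143 and 0.256 CPM in batch 2 KO libraries against 1.45 and 1.69 CPM in batch 2 WT libraries, but 9.58, 6.31 and 13 CPM in batch 1 KO libraries against 4.87 and 16.2 CPM in batch 1 WT libraries, so in batch 1 it did not separate the genotype labels. The 6 markers of CD4 T cells found in the table, out of 9 listed, were present in all libraries, and their sum was 2814 to 2984 CPM in batch 1 KO against 3259 and 3452 CPM in batch 1 WT, and 4130 and 4123 CPM in batch 2 KO against 3605 and 3831 CPM in batch 2 WT.

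No homing or egress gene passed the test between KO and WT. In the edgeR model with batch and genotype (Benjamini-Hochberg adjustment over 22197 genes, threshold 0.05), 0 of the 8 genes were called, where 0.00451% of all genes were called, and 1 of the 8 (Ccr7) had an unadjusted p under 0.05, as did 2.36% of all genes. By DESeq2 none of the 8 was called either, against 0.0721% of all genes, and Ccr7 and S1pr1 had an unadjusted p under 0.05. The median log2 fold change of the 8 was -0.03, against 0.0090 over all genes, with 3 genes higher and 5 lower in KO. The separate batches differed: in batch 1 the 8 genes had a median of -0.18 (all genes 0.04) and 7 of 8 were lower in KO, and in batch 2 the median was 0.15 (all genes -0.02) and 7 of 8 were higher in KO. These counts depend on the scale. By group means in plain CPM 4 of 8 were lower in batch 1 and 7 of 8 higher in batch 2. Per CPM of CD4 T cell markers 2 of 8 were lower in batch 1 and 4 of 8 higher in batch 2. The median of the 8 stayed below that of all genes in batch 1, in CPM (-0.0145 against 0.18) and per marker (0.20 against 0.39). In batch 2 it stayed above, in CPM (0.15 against -0.02) and per marker (-0.0024 against -0.17). DESeq2, with its own size factors, gave every gene of the 8 a negative value in batch 1, from -0.62 to -0.07. In batch 2 it gave only S1pr4 a negative value (-0.13). None of the 8 was called by edgeR within batch 1 (0.126% of 24600 genes were) or within batch 2 (0% of 15910 genes were). An unadjusted p under 0.05 was found for 0 of 8 in batch 1, against 1.97% of all genes, and for 3 of 8 in batch 2 (Ccr7, S1pr1 and Foxo1) against 7.77%.

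**Figure D1:**
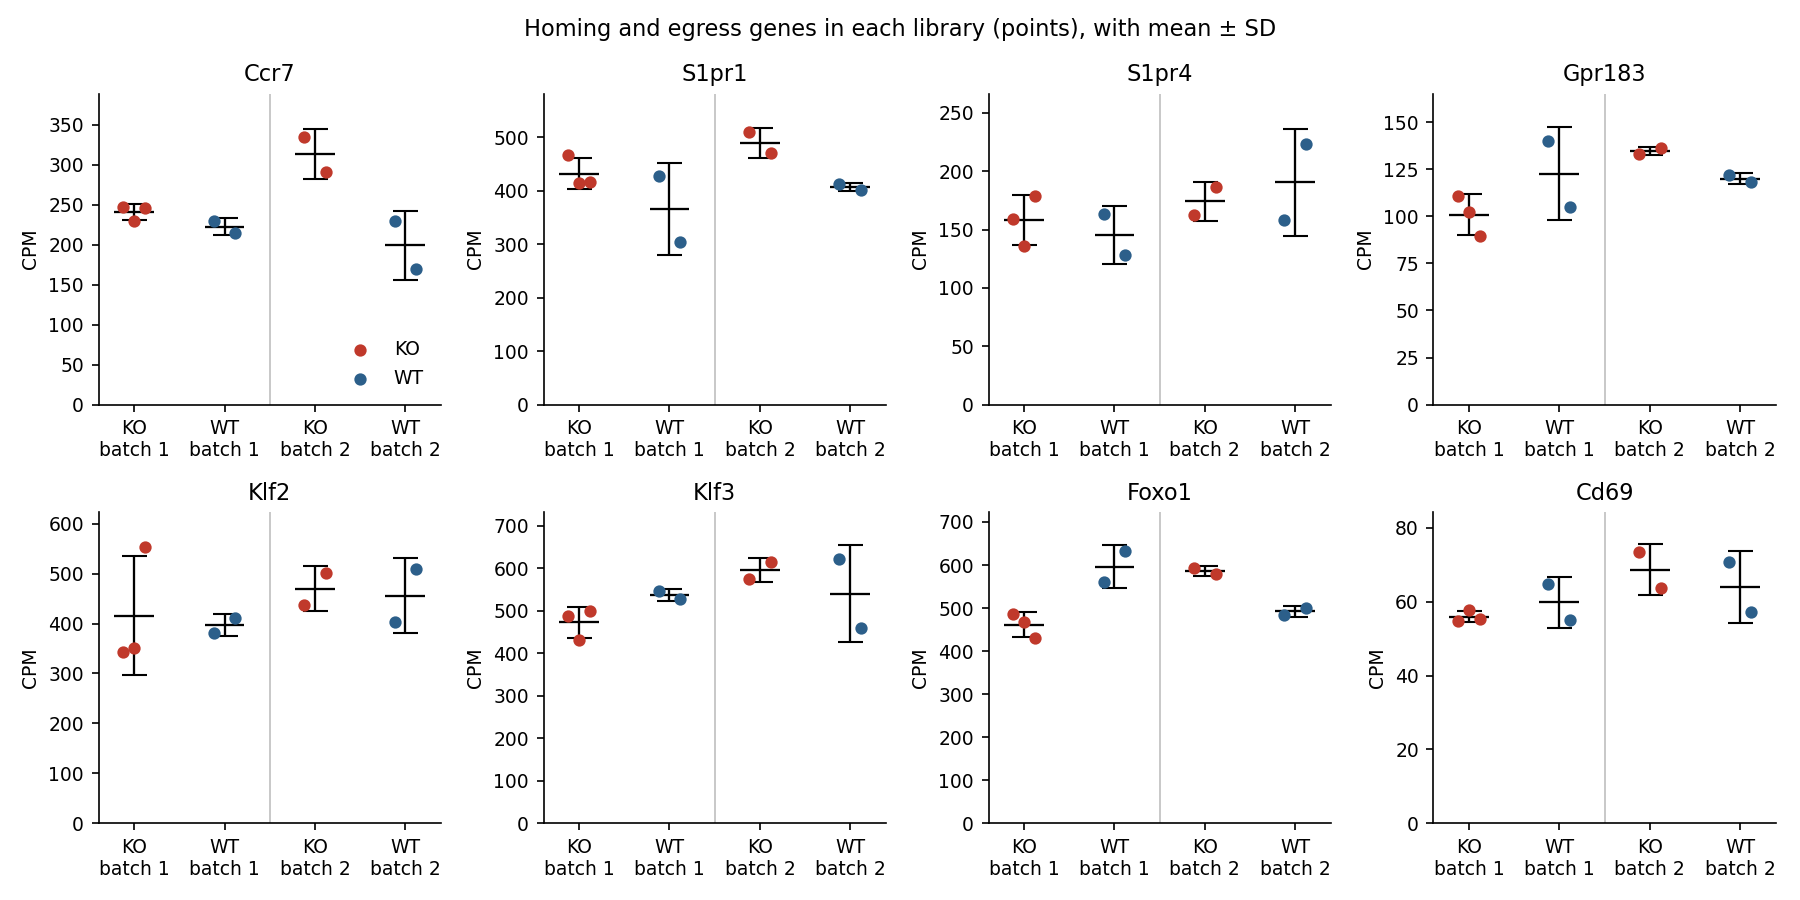
CPM of the 8 homing and egress genes in each library, by batch, with KO left of WT; points are libraries, wide lines are group means and error bars are ± SD (n = 3 in batch 1 KO and n = 2 elsewhere). In batch 2 the KO libraries of Ccr7 (335 and 291 CPM) lie above the WT libraries (230 and 169 CPM), and Foxo1 lies below WT in batch 1 and above WT in batch 2.

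Among the receptors, Ccr7, which responds to the lymphoid chemokines CCL19 and CCL21, had the largest difference of the 8 in batch 2. It stood there at 335 and 291 CPM in KO replicates 4 and 5, against 230 and 169 CPM in WT replicates 3 and 4. Both KO libraries lay above both WT libraries, and the means were 313 ± 31.5 CPM in KO and 199 ± 43 CPM in WT (SD, n = 2 each). In batch 1 it stood at 247, 229 and 246 CPM in KO against 230 and 215 CPM in WT. There the groups overlapped by a single pair, KO replicate 2 at 229 CPM and WT replicate 1 at 230 CPM, with means of 241 ± 10 CPM (SD, n = 3) in KO and 222 ± 10.6 CPM (SD, n = 2) in WT. The edgeR log2 fold change of Ccr7 was 0.65 ± 0.20 (SE; adjusted p = 0.625) in batch 2, -0.04 ± 0.37 (adjusted p = 1) in batch 1 and 0.33 ± 0.15 (adjusted p = 1) over both, or 0.18 without WT replicate 4. The batch 2 value depended on 1 library: without WT replicate 3 the fold change was 0.93 with an edgeR adjusted p of 0.00995, and without WT replicate 4 it was 0.41 and did not pass. The value without WT replicate 3 sets both KO libraries against WT replicate 4 alone, so its spread comes from the KO libraries and the lone WT library is assumed to vary like them, and 268 genes passed in that setting. WT replicate 3 also held 1212 CPM of 5 erythroid genes, against 3.04 to 86.5 CPM in the other 8 libraries, and the part of this in the result was not tested. In bulk RNA, fewer cells of a type and less RNA per cell cannot be told apart.

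Ordered by mean, Ccr7 was highest in batch 2 KO (313 CPM), then batch 1 KO (241 CPM), batch 1 WT (222 CPM) and batch 2 WT (199 CPM). Only the first stood clear of its neighbour, since the other 3 groups overlapped. Divided by the summed CD4 T cell markers, a scale chosen after the values were seen, Ccr7 was 84.3, 76.8 and 87.6 per 1000 marker CPM in batch 1 KO against 66.6 and 66 in batch 1 WT, and 81.2 and 70.6 in batch 2 KO against 63.8 and 44.1 in batch 2 WT. On that scale KO lay above WT in both batches, while the median log2 ratio of all genes was shifted to 0.39 in batch 1 and to -0.17 in batch 2. In batch 1 the sign therefore depended on the scale: the log2 ratio of KO to WT means was 0.11 in CPM, -0.04 in CPM divided by the TMM factor and 0.32 per marker CPM, where the medians of all genes were 0.18, 0.03 and 0.39. The TMM factors ran from 0.938 to 1.25 in batch 1 KO (highest in KO replicate 3) and were 0.835 and 1.05 in batch 1 WT.

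S1pr1, the exit receptor, had 509 and 470 CPM in batch 2 KO against 412 and 402 CPM in batch 2 WT. The groups did not overlap, and the edgeR log2 fold change was 0.27 ± 0.10 (SE; adjusted p = 0.628). In batch 1 it had 466, 414 and 416 CPM in KO against 427 and 305 CPM in WT. Here the groups overlapped, WT replicate 2 was the lowest library, and the fold change was 0.07 ± 0.37 (edgeR adjusted p = 1). Without WT replicate 2 it was -0.31, and without WT replicate 1 it was 0.53. An exact permutation test of log2 CPM that reassigned genotype within batches, two-sided over 60 arrangements with a smallest possible p of 0.0167, gave p = 0.05 for Ccr7 and p = 0.05 for S1pr1. Adjusted over the 8 genes both were 0.2, and the other 6 genes had p from 0.65 to 1. The test used CPM without TMM factors, where the median log2 ratio of all genes was 0.18 in batch 1 and -0.02 in batch 2. With TMM scaling the batch 1 ratio of means was -0.04 for Ccr7 and 0.07 for S1pr1 (log2). The share of all genes that reach such a p was not computed. The mean CPM of S1pr1 was higher in KO in 2 of 2 batches, as were those of Ccr7 and Klf2. In CPM 67.3% of all genes were higher in KO in batch 1 and 47% in batch 2. By DESeq2 the batch 1 fold change of S1pr1 was -0.07. Over both batches its edgeR fold change was 0.22 ± 0.12 (adjusted p = 1), or -0.0087 without WT replicate 2.

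Gpr183, the oxysterol receptor, had 133 and 136 CPM in batch 2 KO against 122 and 118 CPM in batch 2 WT. The separation was small next to that of Ccr7, and its fold change was 0.17 ± 0.10 on the log2 scale (SE; edgeR adjusted p = 0.736). In batch 1 it had 111, 102 and 89.6 CPM in KO against 140 and 105 CPM in WT, which overlapped (-0.44 ± 0.37, edgeR adjusted p = 1). Without WT replicate 1 that value was -0.02. S1pr4, a second S1P receptor of lymphocytes, overlapped in both batches, with 159, 136 and 179 CPM in batch 1 KO against 163 and 128 CPM in batch 1 WT, and 162 and 186 CPM in batch 2 KO against 158 and 223 CPM in batch 2 WT. Its edgeR fold change over both batches was -0.03 ± 0.14 (adjusted p = 1), and WT replicate 4 was its highest library.

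Of the transcription factors, Foxo1 differed in opposite directions in the 2 batches. In batch 1 it had 487, 467 and 431 CPM in KO against 561 and 632 CPM in WT, and every KO library lay below every WT library (461 ± 28.2 CPM, n = 3, and 597 ± 50 CPM, n = 2, SD). In batch 2 it had 594 and 578 CPM in KO against 483 and 501 CPM in WT, and both KO libraries lay above both WT libraries (586 ± 11.3 and 492 ± 12.4 CPM, SD, n = 2 each). The edgeR log2 fold changes were -0.50 ± 0.36 (SE; adjusted p = 1) in batch 1 and 0.26 ± 0.09 (adjusted p = 0.625) in batch 2. The interaction, batch 2 minus batch 1, was 0.66 ± 0.21 with an adjusted p of 0.518 by edgeR, and 0.67 ± 0.17 with an adjusted p of 0.0223 by DESeq2, which called 0.743% of all genes. With each library left out in turn the edgeR fold change of Foxo1 stayed between -0.60 and -0.36 in batch 1 and between 0.24 and 0.28 in batch 2. The value of -0.36 was that without KO replicate 3, the library with Ddx3y. By edgeR 0 of the 8 genes were called in the interaction, against 0.00451% of all genes, and 7 of 8 had a positive value (median 0.30, all genes -0.19). After Foxo1 the largest were those of Ccr7 (0.57 ± 0.25, edgeR adjusted p = 0.591) and Gpr183 (0.48 ± 0.26, edgeR adjusted p = 0.618). Positive values were not particular to the 8. They were found for 6 of 6 CD4 T cell markers (median 0.43), 9 of 9 naive T cell genes (0.65) and 13 of 16 motility genes (0.13). Of 15 proliferation genes and 7 neutrophil genes, 0 were positive.

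The sum of the CD4 T cell markers moved with Foxo1: it was lower in KO in batch 1 and higher in KO in batch 2, with no overlap in either. Per 1000 CPM of these markers, Foxo1 was 166, 156 and 153 in batch 1 KO against 163 and 194 in batch 1 WT, which overlapped. In batch 2 it was 144 and 140 in KO against 134 and 131 in WT, which did not overlap. Among all genes with counts enough for both batches, 2.3% of 15288 lay below WT in batch 1 and above it in batch 2, as Foxo1 did. So did 6 of 89 pathway genes, while 4 of 89 lay above WT in batch 1 and below it in batch 2. Ordered by mean, Foxo1 was 597 CPM in batch 1 WT, 586 CPM in batch 2 KO, 492 CPM in batch 2 WT and 461 CPM in batch 1 KO. The first 2 groups overlapped and so did the last 2, while batch 2 KO stood clear of batch 2 WT.

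Klf2, the FOXO1-dependent activator of S1pr1, showed no separation by genotype. It had 343, 351 and 554 CPM in batch 1 KO against 381 and 412 CPM in batch 1 WT, and 438 and 502 CPM in batch 2 KO against 403 and 509 CPM in batch 2 WT. The groups overlapped in both batches, KO replicate 3 was its highest library, and the edgeR fold change over both was 0.03 ± 0.14 (SE; adjusted p = 1). Klf3 had 488, 431 and 499 CPM in batch 1 KO against 547 and 528 CPM in batch 1 WT, so that all KO libraries lay below WT. Divided by the TMM factors, these batch 1 groups overlapped, and the fold change was -0.34 ± 0.36 (SE; edgeR adjusted p = 1). In batch 2 Klf3 had 576 and 616 CPM in KO against 621 and 459 CPM in WT, which overlapped.

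Cd69, which removes S1PR1 from the surface of activated cells, varied least of the 8, with a root mean square deviation from the batch mean of 0.115 in log2 CPM, against 0.147 to 0.255 for the others. It had 54.8, 57.7 and 55.4 CPM in batch 1 KO against 64.7 and 55 CPM in batch 1 WT, and 73.5 and 63.8 CPM in batch 2 KO against 70.8 and 57.1 CPM in batch 2 WT. The groups overlapped in both batches and the edgeR fold change over both was -0.03 ± 0.12 (SE; adjusted p = 1). The ratio of S1pr1 to Cd69, in which the scaling of the library cancels and which was chosen after the values were seen, was 8.5, 7.17 and 7.51 in batch 1 KO against 6.6 and 5.55 in batch 1 WT, and 6.93 and 7.37 in batch 2 KO against 5.82 and 7.05 in batch 2 WT. KO lay above WT in batch 1 and overlapped it in batch 2, and no test was made of it. Other ratios also lay above WT in a single batch. Klf2 to Foxo1 was 0.704, 0.751 and 1.28 in batch 1 KO against 0.68 and 0.652 in batch 1 WT. Ccr7 to S1pr1 was 0.659 and 0.619 in batch 2 KO against 0.557 and 0.42 in batch 2 WT. The share of all gene pairs that separate likewise was not computed.

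**Figure D2:**
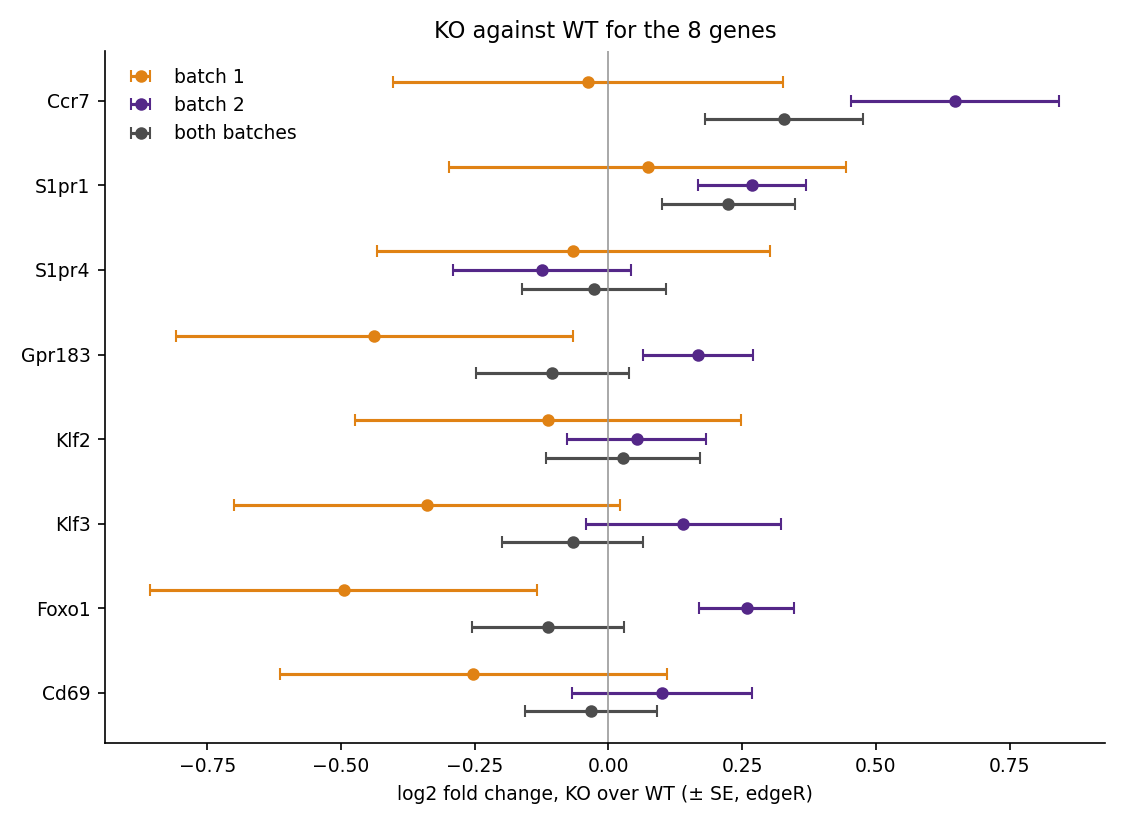
Log2 fold changes of KO over WT for the 8 genes from edgeR, in batch 1, batch 2 and both batches; bars are ± 1 SE. Ccr7 in batch 2 (0.65 ± 0.20) lies farthest above 0 and Foxo1 in batch 1 (-0.50 ± 0.36) farthest below, and none passed the adjusted threshold.

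Counting groups that do not overlap in CPM, Klf3 and Foxo1 lay below WT in batch 1 (2 of 8, against 5.19% of genes) and Ccr7, S1pr1, Gpr183 and Foxo1 lay above WT in batch 2 (4 of 8, against 19.6%). None of the 8 lay above WT in batch 1 (10.9% of genes) or below it in batch 2 (20.5%). With TMM scaling Foxo1 alone lay below WT in batch 1 (6.62% of genes) and none above (7.98%), and in batch 2 the same 4 genes lay above WT (19.8%) and none below (20.4%). Per CD4 T cell marker, Ccr7 and S1pr1 lay above WT in batch 1 (22.8% of genes) and none below (1.06%), and in batch 2 Ccr7 and Foxo1 lay above WT (8.18%) and none below (37.5%). Ccr7 was thus the single gene of the 8 that lay above WT in both batches on that scale. The share of all genes that did so was not computed.

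Between batches the same genes were higher in batch 2 than in batch 1. With genotype in the model, 7 of 8 passed the edgeR test as higher in batch 2, against 16.8% of 22197 genes, with Foxo1 the exception (0.29, adjusted p = 0.0975), and the median was 0.41, while the median over all genes was -0.76. With upper-quartile scaling, which moved the median of all genes to -0.97, 0 of the 8 were called. Depth and sex-linked transcripts differ between the batches. Markers of other cells do too, with neutrophil sums of 5.15 to 191 CPM in batch 2 against 296 to 1026 CPM in batch 1, and B cell sums of 16.3 to 21.3 CPM in batch 2 against 47.3 to 101 CPM in batch 1. Their part in the result was not tested.

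The genes most like each of the 8 in their deviations from the batch mean over 9 libraries (root mean square difference of log2 CPM, among 16078 genes) were on none of the pathway lists. Nearest to Ccr7 were Rcan3 (0.0737) and H2-Ob (0.0855), to S1pr1 Ctnnb1 (0.0425) and Tspan32 (0.0452), and to Foxo1 Zmynd11 (0.0355) and Rfx7 (0.0381). For Klf2 they were Rnf126 (0.0574) and Aimp2 (0.0607), for S1pr4 Sla2 (0.0562) and Xrcc1 (0.0615), and for Gpr183 Tmem71 (0.049) and Cdc123 (0.0577). For Klf3 they were Apex1 (0.069) and Zfp984 (0.0734), and near Cd69 was Rev1 (0.0437). Among the 8 themselves, Ccr7 was nearest to S1pr1 (0.199), Foxo1 to Gpr183 (0.153), S1pr4 and Klf2 to each other (0.179), and Klf3 and Cd69 to each other (0.119). S1pr1 (0.175) and Gpr183 (0.138) were nearest to Cd69, the gene that varied least. The genes' own deviations were 0.255 for Ccr7, 0.17 for Foxo1, 0.187 for S1pr4, 0.208 for Klf2, 0.147 for Klf3 and 0.115 for Cd69. A flat gene would lie about as far away, so these distances show little likeness among the 8.

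The wider pathway gave no genotype calls by edgeR. Of 96 further genes of S1P metabolism, oxysterol synthesis, CCR7 ligands, FOXO and KLF factors, target genes, receptor signalling, motility, other homing receptors and activation, 93 were tested over both batches and 0 were called in either direction, against 0.00451% of all genes. At an unadjusted p under 0.05 there were 7 of 93 over both batches, all lower in KO (1.16% of all genes). There were 2 of 93 in batch 1 (1.97% of all genes) and 17 of 90 in batch 2 (8 higher and 9 lower, against 7.77%). DESeq2 called 0 over both batches, 0 in batch 1 (0.13% of all genes) and 9 in batch 2 (3 higher, 6 lower), where it called 2.07% of all genes. In the interaction it called 4, against 0.743% of all genes. The 16 motility genes include those of small GTPases and of the actin cortex. Of these, 1 had an unadjusted p under 0.05 by edgeR in batch 2 (7.77% of all genes). In batch 1 13 of 16 were lower in KO (median -0.22), and in batch 2 12 of 16 were higher (median 0.06). Per CPM of CD4 T cell markers these counts turned, with 3 of 16 lower in batch 1 and 2 of 16 higher in batch 2. All genes shifted on that scale, with 84.3% higher in KO in batch 1 and 26.3% in batch 2. The median of the motility genes there was 0.13 in batch 1 (all genes 0.39) and -0.097 in batch 2 (all genes -0.17).

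The 7 genes with an unadjusted p under 0.05 over both batches were the activation genes Nr4a1, Nr4a3 and Egr1, the signalling regulators Rgs1 and Rgs2, and the glycan enzymes Fut7 and Gcnt1. Nr4a1, a nuclear receptor induced by T cell receptor signalling, had 279, 361 and 204 CPM in batch 1 KO against 455 and 418 CPM in batch 1 WT, and 109 and 90.4 CPM in batch 2 KO against 387 and 178 CPM in batch 2 WT. Rgs1, which dampens chemokine receptor signalling, had 17.3, 28.7 and 8.88 CPM in batch 1 KO against 30.5 and 36.5 CPM in batch 1 WT, and 15.6 and 13.5 CPM in batch 2 KO against 27.7 and 17.5 CPM in batch 2 WT. Both lay below WT in each batch without overlap, as did Nr4a3 and Egr1, while Grk5 was the single pathway gene above WT in both (5 of 89 pathway genes, against 3.07% of all genes in either direction; Egr1 and Grk5 were named after their values were seen). The edgeR fold changes over both batches were -1.06 ± 0.28 for Nr4a1, -0.85 ± 0.20 for Nr4a3 and -0.77 ± 0.29 for Rgs1 (SE; adjusted p = 1 for each). Rgs2, at -0.84 ± 0.37, had the same sign (edgeR adjusted p = 1), or -0.50 without WT replicate 3. By DESeq2 the adjusted p over both batches was 0.0668 for Nr4a1 and Nr4a3 and 0.879 for Rgs1 and Rgs2. Within batch 2 the DESeq2 adjusted p was 0.00349 for Nr4a1 and 0.0369 for Rgs2, which passed. For Nr4a3 it was 0.0955 and for Rgs1 0.46. Cd69, another gene of activation, showed no such difference, and it was not alone in this. Of the 9 activation genes tested beside it, 3 had an unadjusted p under 0.05 by edgeR (2.36% of all genes), 3 were higher in KO and 6 lower.

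Among the surface genes controlled by FOXO1 and KLF2, Cd55, a complement regulator, had 153 and 153 CPM in batch 2 KO against 111 and 93.7 CPM in batch 2 WT, at 0.58 ± 0.14 on the log2 scale (edgeR adjusted p = 0.618; DESeq2 adjusted p = 0.03). In batch 1 Cd55 had 138, 115 and 94.3 CPM in KO against 123 and 118 CPM in WT, which overlapped. Ctla4 stood at 0.24 ± 0.23 over both batches (edgeR adjusted p = 1), and without WT replicate 2 it was -0.04.

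Fut7 and Gcnt1 make the glycans that selectins bind, and both were lower in KO in batch 2. Gcnt1 had 19.5 and 13.7 CPM in batch 2 KO against 52.9 and 32.3 CPM in batch 2 WT (-1.36 ± 0.33, edgeR adjusted p = 0.618; DESeq2 adjusted p = 0.00633). Fut7 had 10 and 11.8 CPM in batch 2 KO against 16.3 and 30.9 CPM in batch 2 WT (-1.09 ± 0.31, edgeR adjusted p = 0.625; DESeq2 adjusted p = 0.0716), and without WT replicate 4 the value was -0.62. Klf10, a TGF-beta-induced factor, had 17.3 and 20.8 CPM in batch 2 KO against 35.4 and 36.3 CPM in batch 2 WT (-0.91 ± 0.15, edgeR adjusted p = 0.618; DESeq2 adjusted p = 0.00101). In the same batch 15 proliferation genes summed to 942 and 1312 CPM in KO against 3224 and 1850 CPM in WT, 9 genes of naive T cells (which include Ccr7) to 7374 and 6713 CPM in KO against 6020 and 4994 CPM in WT, and 7 neutrophil genes to 5.15 and 8.31 CPM in KO against 191 and 22.8 CPM in WT. The part of these in the batch 2 differences was not tested. In batch 1 the sums were 729, 1120 and 712 CPM in KO against 1083 and 569 CPM in WT for proliferation, 6567, 5454 and 6495 CPM in KO against 7443 and 7377 CPM in WT for naive T cells, and 1026, 637 and 976 CPM in KO against 839 and 296 CPM in WT for neutrophils. There the groups of Gcnt1, Fut7 and Klf10 overlapped.

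**Figure D3:**
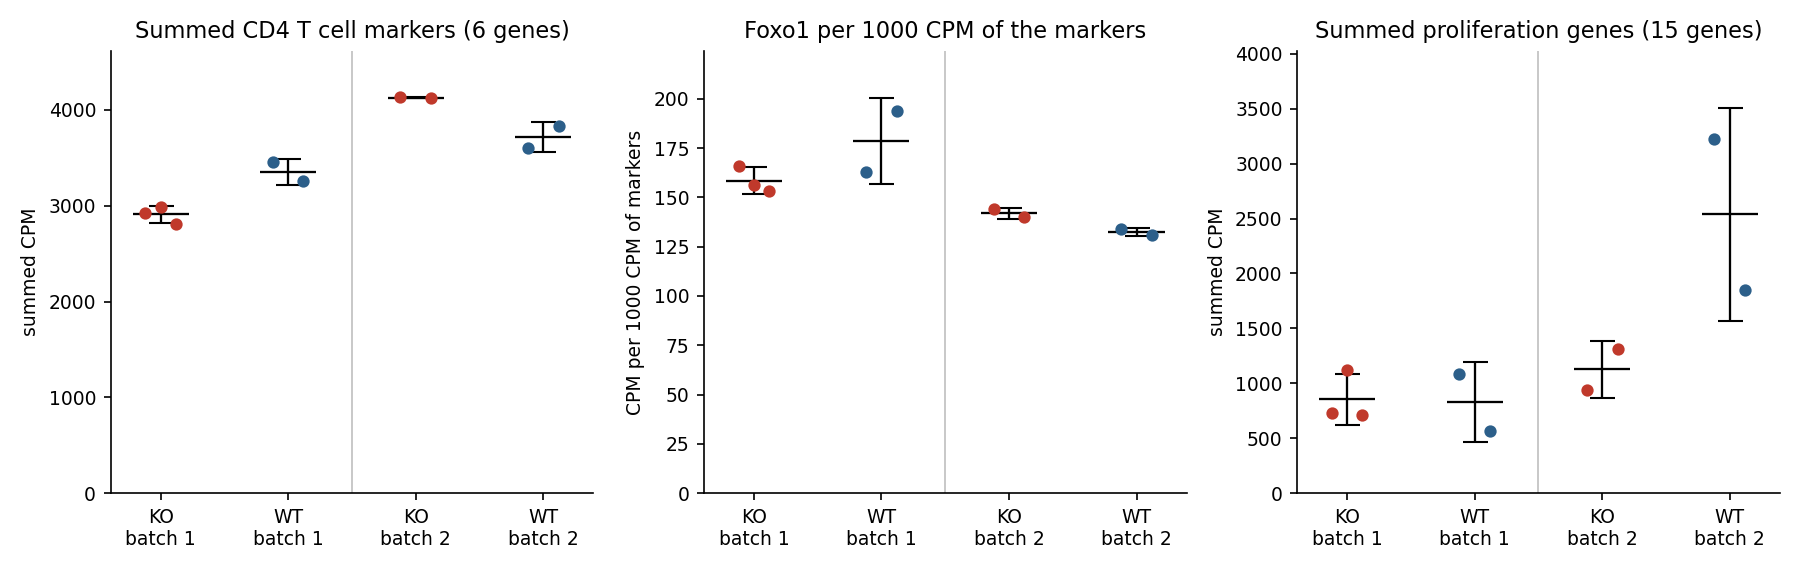
Summed CPM of 6 CD4 T cell markers (left), Foxo1 per 1000 CPM of them (middle) and summed CPM of 15 proliferation genes (right), by batch with KO (red) left of WT (blue); points are libraries and lines the mean ± SD. The CD4 T cell sum is lower in KO in batch 1 (2814 to 2984 against 3259 and 3452 CPM) and higher in KO in batch 2 (4130 and 4123 against 3605 and 3831 CPM).

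The other named genes include receptors and enzymes of the S1P and oxysterol ligands. S1pr5 is a receptor that carries natural killer cells and some effector T cells out of lymphoid organs. It was listed at 0 counts in both batch 2 KO libraries against 20 and 30 counts in the batch 2 WT libraries. In batch 1 it had 2.79, 4.02 and 8.29 CPM in KO (21, 35 and 42 counts) against 2.12 and 2.64 CPM in WT (24 and 13 counts). It was named after its values were seen, and edgeR gave the interaction an adjusted p of 0.451. Genes of sensory receptors also took a larger share of counts in batch 1, and KO replicate 3 had the largest share (0.255%). The part of such background in the batch 1 values of S1pr5 was not tested. Natural killer markers summed to 18.6 and 19.4 CPM in batch 2 KO against 19.5 and 23.7 CPM in batch 2 WT, but the 4 genes of that list differed among themselves, with Gzma at 1.37 and 1.23 CPM in KO against 6.53 and 6.93 CPM in WT and Eomes at 10.8 and 14.8 CPM in KO against 7.3 and 12 CPM in WT. Sphk2, an S1P-making kinase, had 0.20 ± 0.11 over both batches, and Mfsd2b, the S1P exporter of red cells, had -1.23 ± 1.08 (edgeR adjusted p = 1 for each), or 0.60 without WT replicate 3. Cyp7b1 (-1.24 ± 0.95) and Hsd3b7 (0.57 ± 0.40), which make and degrade the GPR183 ligand, had an edgeR adjusted p of 1, as did Ackr4 (1.53 ± 0.89), a scavenger of CCR7 ligands with no counts in batch 2. Mapk7 (0.25 ± 0.14), the ERK5 kinase upstream of KLF2, and the motility genes Rhoh (0.41 ± 0.19) and Rasgrp2 (-0.19 ± 0.11) also had an edgeR adjusted p of 1. Without WT replicate 2 the values were 0.11 for Rhoh, -0.37 for Rasgrp2, 0.13 for Mapk7 and 0.07 for Sphk2, and without WT replicate 4 that of Cyp7b1 was -0.49.

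**Figure D4:**
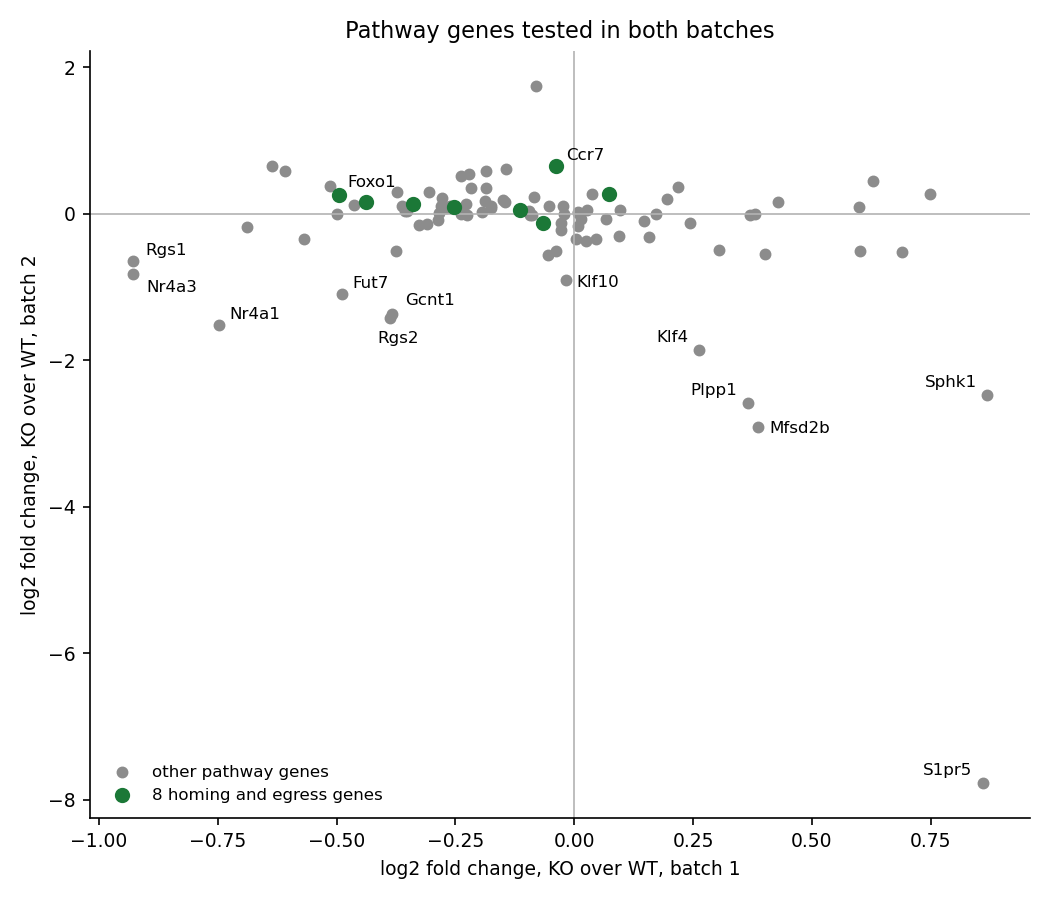
Log2 fold changes of KO over WT by edgeR in batch 1 (horizontal) and batch 2 (vertical) for 89 pathway genes and the 8 homing and egress genes. Nr4a1, Nr4a3 and Rgs1 lie below 0 in both batches, Foxo1 lies left of 0 and above 0, and S1pr5, at 0 counts in batch 2 KO, lies lowest.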

How the data were processed

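Per the labels' protocols, column-purified total RNA went into Ovation libraries that were read from a single end. The submitters' processing notes name Salmon 1.2.0, R 4.0.3 and GRCm39 but no roles. The authors deposited estimated counts (expected counts) for 39253 genes, per the file headers. Strandedness, gene summarisation and scaling by transcript length: not given in the sources used here. All 9 columns were mapped, leaving 0 unused.

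Values were rounded to whole numbers. KO and WT were compared with edgeR 4.0.16 in R 4.3.3 (quasi-likelihood test, robust, TMM, low-count filter with minimum count 10 and minimum total 15, Benjamini-Hochberg threshold 0.05), over both batches with batch as a term, within each batch, for their interaction and for the batch term. The SE given with edgeR values was derived as the absolute log2 fold change divided by the square root of the test's F statistic. CPM is counts per library total. A floor of 3 counts was 0.043 to 0.609 CPM and covers counting error only. No 2 libraries of the same genotype and batch agreed within sampling noise, and other pairs were not compared. Nothing says which libraries come from separate animals, so p-values measure only the spread between these libraries, which may be technical.

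Alternatives used DESeq2 1.42.0, limma-voom (limma 3.58.1), other scaling, no filter, no batch term, a replicate block and each library left out. CPM divided by TMM factors or by CD4 T cell markers was added after seeing the data. Log2 CPM used a pseudocount of 0.5 CPM. The edgeR test was checked on simulated data. The 8 genes and all lists were chosen with earlier results of these data known. Genes named beyond the 8 and Esr1 were those past the threshold, and the 2 with the smallest p of each pathway list over both batches. Some genes that this rule names are not reported here. Exceptions are marked.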

Additional observations from a re-analysis of the deposited data

Results flagged for a closer look

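Among 52 gene and genotype groups examined over both batches, 2 held a library far from the others, where about 2.6 are expected by chance. Sphk2 was at 46.3 CPM in WT replicate 3, while the other 3 WT libraries had 39.2 to 40 CPM. Mfsd2b, the red cell S1P exporter, was at 32.9 CPM in WT replicate 3, while the other 3 WT libraries had 1.16 to 4.06 CPM, and the 5 erythroid markers summed to 1212 CPM in that library.

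Foxo1 was lower in all KO libraries than in all WT libraries of batch 1 and higher in batch 2. So were 6 of 89 pathway genes, against 2.3% of all genes with counts enough for both batches. For Foxo1 the difference between the batches was 0.66 on the log2 scale. It did not pass by edgeR (adjusted p = 0.518) but did by DESeq2 (adjusted p = 0.0223). Every leave-one-out value had the same sign, from 0.57 to 0.84.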

How the results depend on the processing

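No homing or egress gene was called between KO and WT over both batches or in batch 1 under any alternative run. In batch 2 leaving out single libraries gave 0 to 1 calls, Ccr7 without WT replicate 3, where the WT arm is 1 library with no spread of its own. In the interaction DESeq2 called 1, Foxo1. In the batch term upper-quartile scaling called 0, and leaving out single libraries gave 2 to 8. Calls over all genes were 1 over both batches (16 by DESeq2, 2 with no filter, 0 by limma-voom, 0 without the batch term, 0 to 3 leaving out libraries), 31 in batch 1 (56 with DESeq2 size factors, 6 with upper-quartile scaling, 68 with no filter, 3 with all 9 libraries in 1 model, 33 to 118 leaving out libraries), 0 in batch 2 (329 by DESeq2, 34 with no filter, 0 to 879 leaving out libraries), 1 in the interaction (165 by DESeq2, 2 with no filter, 0 by limma-voom, 1 to 238 leaving out libraries) and in the batch term 25837 with no filter and 11456 to 18656 leaving out libraries.

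Whether the replicate numbers pair the samples stayed undecided. Correlations of same-numbered deviations from the group mean were 0.406, -0.432 and -0.112. Each batch has 2 WT libraries, whose deviations mirror each other, so these correlations can neither show nor exclude pairing. With the replicate block 58 genes were called in batch 1, and over both batches the log2 fold changes of Klf2 (-0.20), Cd69 (0.0702) and Mfsd2b (0.738) changed sign, as did those of Ccr7 (0.0875) and S1pr4 (0.0109) in batch 1. No block could be fitted within batch 2, where only 1 number is shared.

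Other changes of sign, all of values that did not pass, had no tested cause. Over both batches they were Klf2 with no filter (-0.0947), without the batch term (-0.0123) and without WT replicate 3 and KO replicate 3 (-0.19), Cd69 (0.0195) and Mfsd2b (0.66) without those 2 libraries, and Cd69 on the log2 CPM scale of the permutation test (0.0071). In batch 1 they were S1pr1 with DESeq2 size factors or test (-0.0715), Ccr7 (0.044) and S1pr4 (0.0422) with upper-quartile scaling, Ccr7 (0.0698), S1pr4 (0.0651) and Klf2 (0.0147) with all 9 libraries in 1 model, and Esr1 by limma-voom (0.0147). Leaving out 1 library turned the sign over both batches of S1pr1 (-0.0087 to 0.34), S1pr4 (-0.27 to 0.0691), Gpr183 (-0.285 to 0.0517), Klf2 (-0.124 to 0.0823), Cd69 (-0.20 to 0.0442), Ctla4 (-0.0393 to 0.308) and Mfsd2b (-1.93 to 0.60). In batch 1 it turned Ccr7 (-0.27 to 0.19), S1pr1 (-0.31 to 0.53), S1pr4 (-0.40 to 0.31), Cd69 (-0.54 to 0.0525) and Esr1 (-0.78 to 0.59). In batch 2 it turned S1pr4 (-0.32 to 0.0923), Klf2 (-0.0737 to 0.18), Klf3 (-0.10 to 0.42) and Cd69 (-0.0864 to 0.31), and in the interaction S1pr1 (-0.34 to 0.55), S1pr4 (-0.51 to 0.25), Klf2 (-0.0786 to 0.289) and Cd69 (-0.0239 to 0.616).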
